A study of Mus musculus with 2 samples.

Results

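The miR-23/27/24 microRNAs of the mouse come from 2 paralogous clusters, one on chromosome 8 (miR-23a, miR-27a and miR-24-2) and one on chromosome 13 (miR-23b, miR-27b and miR-24-1). They were examined in cultured vascular smooth muscle cells of diabetic and control mice. Members were chosen by name, as 10 of the 1909 mature microRNAs in the deposited tables: mmu-miR-23a-5p, mmu-miR-23a-3p, mmu-miR-27a-5p, mmu-miR-27a-3p, mmu-miR-23b-5p, mmu-miR-23b-3p, mmu-miR-27b-5p, mmu-miR-27b-3p, mmu-miR-24-3p and mmu-miR-24-2-5p, written below without the species prefix. All 10 were found in both tables. The cells were taken from the thoracic aorta of males at an age of 10 to 12 weeks, and were cultured in DMEM/F-12 medium to which 10% serum of fetal calves had been added. The db/db library came from type 2 diabetic mice homozygous for the db mutation of the leptin receptor gene Lepr, on the background BKS.Cg-m+/+Leprdb/J. The db/+ library came from control mice labelled Lepr+/-, which carry 1 mutant copy. There was 1 library per group, and the sources used here state neither the number of mice per culture nor the number of passages. Every difference below is therefore one of 2 single libraries, which permits no test of the genotypes.

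A microRNA hairpin is cut by Drosha and Dicer into a duplex of a 5p and a 3p strand, one of which is usually loaded into Argonaute while the other is degraded. The strand that is kept pairs with messenger RNAs mainly through its seed, so a hairpin whose 2 arms are both kept can repress different sets of targets. In this family the 3p arms are the usual guides. In mouse endothelium miR-23 and miR-27 are known to repress the angiogenesis inhibitors Sprouty2 and Sema6A, miR-27 represses the adipocyte regulator Pparg, and miR-24 is known in smooth muscle for lowering Trib3 under platelet-derived growth factor.

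Mature sequences were taken from RefSeq on GRCm38.p6 for 9 of the 10 members. The 5p arms of miR-23 are shown first, since the results turn on the arms of these hairpins, each written 5′ to 3′ with the seed (bases 2 to 8) in capitals.
miR-23b-5p: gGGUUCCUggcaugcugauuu
miR-23a-5p: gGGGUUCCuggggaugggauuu
The start of miR-23b-5p lies 1 base inside the start of miR-23a-5p, so the seeds are the same stretch shifted by 1 base, and 18 bases match in the aligned pair. Their lengths are 21 and 22 bases.

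The 3p arms, the usual guides, follow with the seed in capitals, and the 5p arms of the other hairpins after them.
miR-23a-3p: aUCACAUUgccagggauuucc
miR-27b-3p: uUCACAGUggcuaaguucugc
miR-27a-3p: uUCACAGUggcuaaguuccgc
miR-24-3p: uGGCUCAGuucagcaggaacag
miR-27b-5p: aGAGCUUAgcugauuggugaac
miR-27a-5p: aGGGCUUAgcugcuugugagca
miR-24-2-5p: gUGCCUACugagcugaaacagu
miR-27a-3p and miR-27b-3p share the seed UCACAGU and differ by 1 substitution, C19U, with positions counted from 1 at the 5′ end and the base of miR-27a-3p first. The sources used here do not state how reads that fit both names were assigned, so the split between such 3p paralogs is uncertain. The 3p arms of miR-23a and miR-23b are likewise known to be nearly identical. The 5p arms of miR-27 begin alike for 2 bases only and differ at 8 positions when compared base by base.

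The hairpins of miR-23b and miR-23a are printed with the 5p arm in capitals, to show the 2 precursors whose arms parted.
Mir23b: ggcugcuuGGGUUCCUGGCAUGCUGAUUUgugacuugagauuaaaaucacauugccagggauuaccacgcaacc
Mir23a: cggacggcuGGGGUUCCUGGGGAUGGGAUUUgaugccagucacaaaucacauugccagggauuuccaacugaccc
Mir23b, of 74 bases, lies at chr13:63300484-63300557 on the plus strand of GRCm38, and Mir23a, of 75 bases, at chr8:84208518-84208592, also on the plus strand. The G and C content was 48.6% in the Mir23b hairpin and 56.0% in the Mir23a hairpin.

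In the chromosome 13 cluster, Mir27b lies at chr13:63300712-63300784 and Mir24-1 at chr13:63301208-63301275, and the 3 hairpins span 792 bases. GENCODE M21 places them inside the protein-coding gene 2010111I01Rik on the same strand and inside Fancc on the opposite strand. Mir23b overlaps no annotated exon of these genes and is intronic. Mir27b lies wholly within an exon of a 2010111I01Rik transcript annotated for nonsense-mediated decay, and Mir24-1 overlaps exons of such transcripts and of noncoding transcripts of that gene. In the chromosome 8 cluster, Mir27a lies at chr8:84208672-84208758 and Mir24-2 at chr8:84208815-84208921, a span of 404 bases from Mir23a. No annotated gene other than microRNA genes overlaps Mir23a or Mir27a, and 2 bases of Mir24-2 overlap the long noncoding gene Gm26532.

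The libraries held 24295112 microRNA counts in db/db and 25915732 in db/+, with 833 microRNAs detected in db/db and 881 in db/+. Levels are counts per 1000000 microRNA counts (CPM). The members printed above are all 21 to 22 bases long and a read covers the whole molecule, so their levels were compared without a length correction. Whether different sequences were recovered equally well was not tested. Comparisons of arms or members within a library are therefore comparisons of counts. Ratios are of db/db over db/+, with 95% intervals that cover counting error only, and not variation between cultures or libraries. Even for counting error they may be too narrow, since reads without molecular identifiers can be PCR copies. Other scalings of the libraries multiplied every ratio by 0.994 to 1.09, which for abundant members is more than the counting interval. No member ratio changed direction under them. Whether the interval of a ratio close to 1 includes 1 can still rest on the scaling. Together the 10 members held 85493 counts in db/db (0.352% of the library) and 107060 in db/+ (0.413%). The smooth muscle markers, both arms of miR-143 and miR-145a, summed to 1567 CPM in db/db and 1656 CPM in db/+, mostly from miR-143-3p. Their ratios differed, at 0.971 for miR-143-3p, 1.32 for miR-143-5p, 0.795 for miR-145a-5p and 0.977 for miR-145a-3p. Endothelial markers were rare, with 71 counts over both arms of miR-126a in db/db and 7 in db/+, a ratio of 10.8 (4.99 to 27.9). Most of this came from miR-126a-5p, with 58 counts in db/db and 2 in db/+. The other arm, miR-126a-3p, had 13 counts in db/db and 5 in db/+, a ratio of 2.77 (0.928 to 9.94) whose interval included 1. The 4 epithelial markers had 21 counts in db/db and 6 in db/+. The 4 blood markers had 161 counts in db/db and 167 in db/+, and of these miR-223-3p and miR-142a-3p had 0 in both. The 3 striated muscle markers summed to 2833 CPM in db/db and 2508 CPM in db/+, nearly all on miR-206-3p, while miR-133a-3p had 1 count in each library. The remaining marker, miR-1a-3p, had 1664 counts in db/db and 920 in db/+, a ratio of 1.93 (1.78 to 2.09). The part of other cell types in the results below was not tested, and in such bulk samples fewer cells of a type and less RNA per cell cannot be told apart.

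The arms of miR-23b lay on opposite sides. In the db/db library miR-23b-5p was the higher arm, with 16439 counts (677 CPM), against 10852 counts (419 CPM) in the db/+ library. Its ratio was 1.62 (1.58 to 1.66), or 0.69 on the log2 scale. The usual guide, miR-23b-3p, had 14949 counts (615 CPM) in db/db and 21512 counts (830 CPM) in db/+. Its ratio was 0.741 (0.726 to 0.757), a log2 ratio of -0.43. The 5p arm was thus above and the 3p arm below their db/+ levels, and both counting intervals excluded 1.

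Added over both arms, miR-23b differed little, with 1292 CPM in db/db and 1249 CPM in db/+, a ratio of 1.03 (1.02 to 1.05). The 5p share of its counts was 52.4% (exact binomial 95% interval 51.8 to 52.9) in db/db and 33.5% (33.0 to 34.0) in db/+. This difference of 18.8 percentage points (Newcombe interval 18.1 to 19.6) put the major arm at 5p in db/db and at 3p in db/+, with the 3p reads assigned as deposited. There were 0.909 reads of the 3p arm for each 5p read in db/db and 1.98 in db/+. The odds that a read lay on the 5p arm were 2.18 times as high in db/db (2.11 to 2.25). Shares within a library do not depend on scaling between libraries.

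The chromosome 8 paralog had a higher 5p arm and a lower 3p arm in db/db as well, at a much lower 5p share. In db/db miR-23a-5p had 1605 counts (66.1 CPM), against 1281 counts (49.4 CPM) in db/+, a ratio of 1.34 (1.24 to 1.44). The guide arm miR-23a-3p had 14920 counts (614 CPM) in db/db and 28828 counts (1112 CPM) in db/+. Its ratio of 0.552 (0.541 to 0.563), a log2 ratio of -0.86, was the lowest of the 10 members. Unlike miR-23b, miR-23a was also lower over both arms, with the 3p reads assigned as deposited. It had 680 CPM in db/db and 1162 CPM in db/+, a ratio of 0.585 (0.574 to 0.597).

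The 5p share of miR-23a was 9.71% (9.27 to 10.2) in db/db and 4.25% (4.03 to 4.49) in db/+, a difference of 5.46 percentage points (4.96 to 5.97). On the odds scale the arms parted by 2.42 (2.24 to 2.61), beside 2.18 (2.11 to 2.25) for miR-23b. These counting intervals overlapped only between 2.24 and 2.25, which does not show that the odds ratios are alike. For miR-23a the 3p arm outnumbered the 5p arm 9.30 to 1 in db/db and 22.5 to 1 in db/+.

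In both miR-23 hairpins, 3p levels, sums over both arms and arm shares rest on how reads fitting either 3p arm were assigned. The sources used here do not state that assignment. Some other names held identical counts, such as the 3p arms of miR-199a and miR-199b (180274 in db/db and 264469 in db/+). Reads fitting several names may therefore have been counted under each. The pooled values assume that no read was counted under both miR-23 names. Pooled over the pair, the 5p share of miR-23 was 37.7% (37.2 to 38.1) in db/db and 19.4% (19.1 to 19.7) in db/+. The pooled difference was 18.2 percentage points (17.7 to 18.8) and the pooled odds ratio 2.51 (2.44 to 2.58). If all miR-23 3p reads belonged to miR-23b, its 5p share would be 35.5% in db/db and 17.7% in db/+, with 3p as the major arm in both libraries. The change of major arm thus depends on the assignment, while the 5p share was higher in db/db in the pooled count as well.

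**Figure D1:**
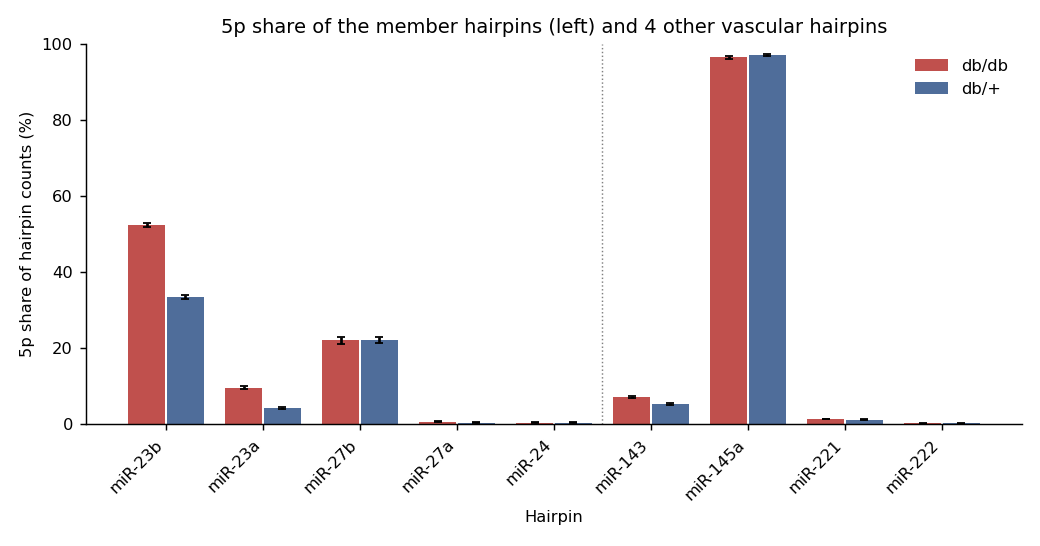
Share of each hairpin's counts on its 5p arm (%, vertical axis) in the db/db and db/+ libraries, with exact binomial 95% intervals as error bars. The miR-23b bars stand at 52.4% in db/db and 33.5% in db/+ and the miR-23a bars at 9.71% in db/db and 4.25% in db/+, while the bars of miR-27b, miR-27a and miR-24 (both 5p names over miR-24-3p) differ by less than 1 percentage point; the 4 hairpins right of the dotted line are miR-143, miR-145a, miR-221 and miR-222.

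The arm shares were then set against those of all hairpins. A hairpin was counted as different at 10 or more percentage points between its 5p shares, provided that its arms summed to 50 or more counts in each library. This held for 1 of the 4 hairpins of the family that have both arms by name, miR-23b, and for 20 of 204 hairpins overall (9.80%). With at least 1000 counts it held for 5 of 85 (5.88%), and miR-23b had the largest difference in either direction among these 85. Among the 204, miR-3072 (22.2 percentage points) and miR-702 (19.4 percentage points) differed by more, at far lower counts. The members were chosen with earlier results of these data known, so the rank of miR-23b is a description only. The middle of the distribution was narrow, as 64 of the 85 differed by less than 2 percentage points. Of the 85 hairpins 6 had a different major arm in the 2 libraries, namely miR-23b, miR-574, miR-351, miR-106b, miR-299a and miR-299b, of which the last 2 had nearly equal counts.

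Because a share near 0 or 100% cannot move far, the arms were also ranked by odds ratio. Over the 85 hairpins, with 0.5 counts added to each arm, miR-23a was the 13th and miR-23b the 17th by size in either direction. Some of the 85 have few reads on the minor arm, so hairpins with both arms well counted were ranked too, a choice made after the values were seen. Among the 11 hairpins whose arms each averaged at least 1000 counts, miR-23a (2.42) and miR-23b (2.18) had the largest odds ratios in either direction and were the 2 that reached 2-fold. The next was let-7d at 0.700, followed by miR-143 at 1.36, and miR-27b had the smallest at 0.994. At an average of at least 100 counts per arm, miR-23a was the second and miR-23b the fourth of 56. The first and the third were miR-140 at 0.269 and miR-322 at 0.435, and 5 of the 56 reached 2-fold.

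**Figure D2:**
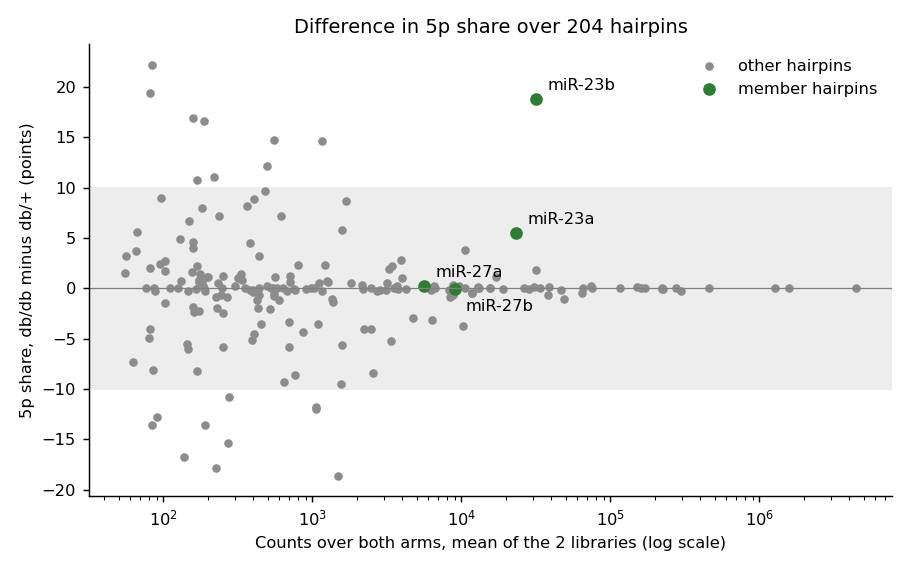
Difference in 5p share, db/db minus db/+ (percentage points, vertical axis), against the mean count over both arms of the 2 libraries (log scale) for 204 hairpins, with differences under 10 points shaded. Large differences are mostly found below 1000 counts, whereas miR-23b, at 18.8 points, lies among deeply counted hairpins whose differences are mostly near 0, and miR-23a lies at 5.46 points.

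The hairpins nearest to miR-23b in signed difference, among those with at least 1000 counts in each library, were miR-574, miR-351 and miR-411. In the opposite direction miR-106b differed by nearly as much, with a 5p share of 46.2% in db/db and 64.9% in db/+ (-18.6 percentage points). The 5p share of miR-574 was 56.3% in db/db and 41.7% in db/+, a difference of 14.6 percentage points (10.6 to 18.6). For miR-351, of an X-linked cluster, it was 54.1% in db/db and 45.4% in db/+, a difference of 8.67 (5.17 to 12.1). The smallest of the 3 was miR-411, with 78.8% in db/db and 73.0% in db/+. Their counts over both arms, from 1248 to 2129 in db/db, lay far below the 31388 of miR-23b. This likeness is over 2 libraries.

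In 4 other hairpins of vascular cells the 5p shares differed by at most 1.83 percentage points between the libraries. The largest was in miR-143, known for the contractile state of smooth muscle, with a 5p share of 7.28% in db/db and 5.45% in db/+ (1.83 percentage points, 1.45 to 2.21). For miR-145a the difference was -0.63, for miR-221 0.183 and for miR-222 -0.040 percentage points, the last with an interval that included 0. Nearly all counts of these 4 hairpins lay on a single arm, which limits how far a share can move in points. The odds ratio of the arms was 1.36 (1.28 to 1.45) for miR-143 and 1.15 (1.05 to 1.25) for miR-221. It was 0.814 (0.683 to 0.969) for miR-145a and 0.867 (0.627 to 1.20) for miR-222. Only the miR-222 interval included equal odds, so the arms of the others differed as well, in both directions.

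The miR-27 hairpins are the neighbours of miR-23 in each cluster. Both arms of miR-27b were slightly higher in db/db, miR-27b-3p with 7111 counts (293 CPM), against 6921 counts (267 CPM) in db/+, a ratio of 1.10 (1.06 to 1.13). The 5p arm had 2019 counts (83.1 CPM) in db/db and 1976 (76.2 CPM) in db/+, a ratio of 1.09 (1.02 to 1.16). The 5p share of miR-27b was accordingly 22.1% in db/db and 22.2% in db/+, a difference of -0.096 percentage points (-1.31 to 1.12).

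From chromosome 8, the adipogenesis-linked miR-27a-3p had 5184 counts (213 CPM) in db/db and 6039 (233 CPM) in db/+, a ratio of 0.916 (0.882 to 0.950), and of 0.910 to 0.994 under the other scalings. Its passenger miR-27a-5p was rare, with 39 counts in db/db and 30 in db/+, under the 50 counts used as a floor, and the interval of its ratio of 1.39 (0.840 to 2.31) included 1. The 5p share of miR-27a was 0.747% in db/db and 0.494% in db/+, with a difference whose interval, -0.038 to 0.562 percentage points, included 0. The odds ratio of the arms of miR-27a was 1.51 (0.915 to 2.53), an interval that holds both 1 and the 2.42 of miR-23a.

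Both loci encode miR-24-3p, the most abundant member in each library. It had 23134 counts (952 CPM) in db/db and 29501 (1138 CPM) in db/+, a ratio of 0.836 (0.822 to 0.851). Its counts cannot be divided between the loci, but the 5p arms differ in sequence. For the chromosome 8 arm, miR-24-2-5p, 93 counts stood in db/db and 120 in db/+, a ratio of 0.827 (0.624 to 1.09). From chromosome 13 the corresponding arm, miR-24-1-5p, had 24 counts in db/db and 23 in db/+, a ratio of 1.11 (0.602 to 2.06). Its sequence carries the same seed, in capitals, and the first 16 bases are those of miR-24-2-5p.
miR-24-1-5p: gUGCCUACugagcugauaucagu
Neither interval excluded 1, and the share of miR-24-1-5p in the pair was 20.5% (13.6 to 29.0) in db/db and 16.1% (10.5 to 23.1) in db/+. Over miR-24-3p, the 2 5p names together took 0.503% in db/db and 0.482% in db/+, with an odds ratio of 1.04 (0.810 to 1.34).

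Other names tied to the family were almost silent. On the strand opposite to the miR-24 hairpins, miR-3074-5p had 0 counts in db/db and 1 in db/+, miR-3074-1-3p had 1 in db/db and 0 in db/+, and miR-3074-2-3p had 0 in both. A count of 0 allows up to 3 counts, or 0.123 CPM in db/db and 0.116 CPM in db/+. Outside the members, 4 names carry the seed of miR-24-3p (miR-5124b, miR-6369, miR-6410 and miR-6413), and all had 0 counts in both libraries.

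The clusters differed in their sums. Names that chromosome 8 alone encodes summed to 899 CPM in db/db and 1401 CPM in db/+, a ratio of 0.642 (0.631 to 0.653), most of it from miR-23a-3p. Those of chromosome 13 alone summed to 1668 CPM in db/db and 1592 CPM in db/+, a ratio of 1.05 (1.03 to 1.06). With miR-24-3p added to the chromosome 13 sum, that ratio was 0.960. Both cluster sums rest on how reads fitting either 3p paralog were assigned, which is not stated. The 5p arms of chromosome 8 did not all share the direction of its sum. The ratio was 1.34 for miR-23a-5p, 1.39 for miR-27a-5p and 0.827 for miR-24-2-5p, the last 2 with intervals that included 1. By arm, the 5 3p members summed to 2688 CPM in db/db and 3581 CPM in db/+ (ratio 0.751, 0.743 to 0.758), and the 5 5p members to 831 CPM in db/db and 550.2 CPM in db/+ (1.51, 1.48 to 1.54). This last ratio was that of miR-23b-5p for the most part, which held 81.4% of the 5p counts in db/db and 76.1% in db/+.

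Within each 3p pair, with reads assigned as deposited, the chromosome 13 paralog took a larger share in db/db. The share of miR-23b-3p in the miR-23 3p pair was 50.05% (49.5 to 50.6) in db/db and 42.7% (42.3 to 43.2) in db/+. For miR-27b-3p in the miR-27 3p pair it was 57.8% (57.0 to 58.7) in db/db and 53.4% (52.5 to 54.3) in db/+. Summed over the pair, which does not depend on how shared reads were split if each was counted once, miR-23 3p arms had 1229 CPM in db/db and 1942 CPM in db/+, a ratio of 0.633 (0.624 to 0.642). The miR-27 3p arms, with 1 common seed, summed to 506 CPM in db/db and 500.1 CPM in db/+, a ratio of 1.01 (0.987 to 1.04). The miR-23 guides together were thus lower while the interval of the miR-27 guides included 1. That inclusion rests on scaling to library totals, since the other scalings multiplied ratios by 0.994 to 1.09. Among the 5p arms of miR-23, miR-23b-5p held 91.1% in db/db and 89.4% in db/+. Among those of miR-27, miR-27b-5p held 98.1% in db/db and 98.5% in db/+. That difference of -0.40 percentage points had an interval, -1.22 to 0.41, that included 0.

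**Figure D3:**
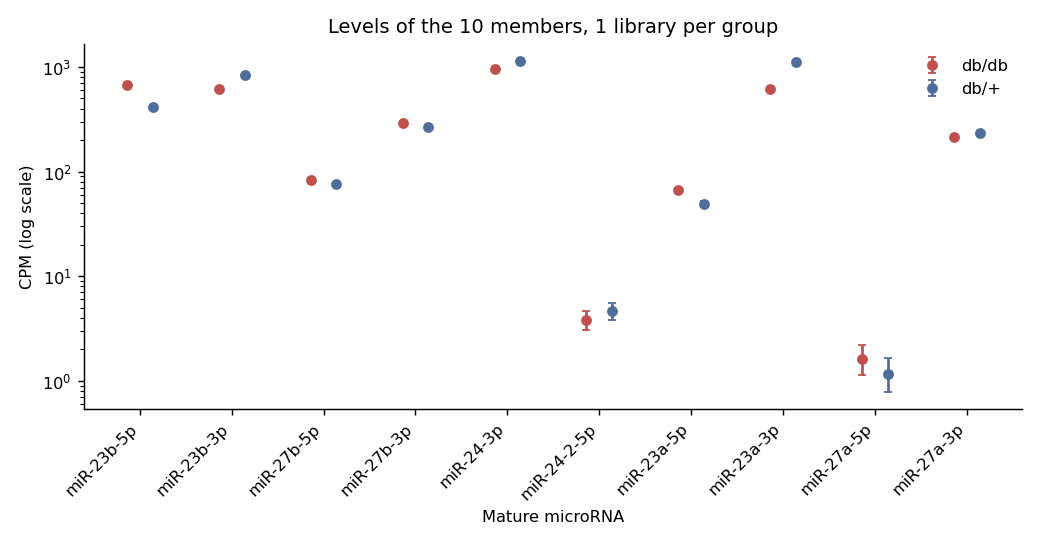
Level of each of the 10 members (CPM, log scale) in the db/db and db/+ libraries, with exact 95% counting intervals, which are smaller than the points for most members. The chromosome 13 names stand at the left and the chromosome 8 names at the right of miR-24-3p; miR-23b-5p lies above miR-23b-3p in db/db (677 and 615 CPM) and below it in db/+ (419 and 830 CPM).

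The order of levels among the members differed at the top. In db/db it ran miR-24-3p, miR-23b-5p, miR-23b-3p, miR-23a-3p, miR-27b-3p, miR-27a-3p, miR-27b-5p, miR-23a-5p, miR-24-2-5p and miR-27a-5p. In db/+ the order after miR-24-3p was miR-23a-3p, miR-23b-3p and miR-23b-5p, and the other places were the same. All neighbours in these orders had separate counting intervals except miR-23b-3p and miR-23a-3p in db/db, at 615.3 and 614.1 CPM. Among all 1909 names, miR-23b-5p was the 35th most abundant in db/db and the 44th in db/+, and miR-23a-3p was the 40th in db/db and the 32nd in db/+.

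By a rule of size, which counts ratios of at least 2 or at most 0.5 among microRNAs with at least 50 counts in 1 or both libraries, 9 members could be counted and 0 were past 2-fold in either direction. Over all 356 microRNAs past that floor, 4.49% reached 2-fold above 1 and 13.5% reached 2-fold below 1. At 1.5-fold, 1 of the 9 was higher (miR-23b-5p) and 1 was lower (miR-23a-3p), and of all 356 the share was 13.5% higher and 24.2% lower. These counts are near the background and say nothing particular of the family. The median log2 ratio was -0.13 over the 9 members, from -0.86 to 0.69, and -0.14 over the 356. In the order of all 356 ratios from the highest, miR-23b-5p was the 29th and miR-23a-3p the 293rd.

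**Figure D4:**
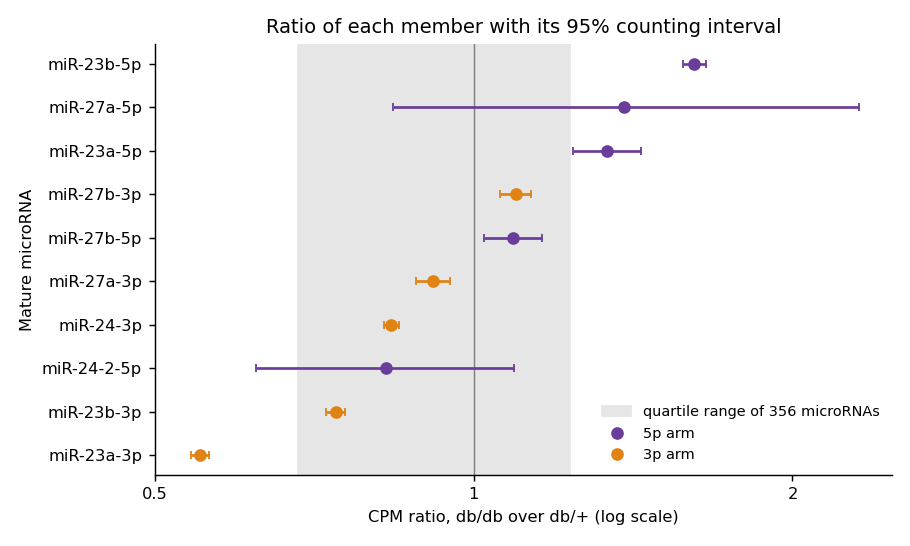
Ratio of CPM in db/db over db/+ for each member (log scale) with its exact conditional 95% counting interval, 5p and 3p arms in different colours. The shaded band spans the quartiles of 356 microRNAs, log2 -0.55 to 0.30; miR-23b-5p (1.62) and miR-23a-5p (1.34) lie to the right of it, as does miR-27a-5p (1.39, with an interval that includes 1), and miR-23a-3p (0.552) lies to the left.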

How the data were processed

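Per the labels' protocols, total RNA of the cultures was extracted on miRNeasy columns and libraries followed a standard Illumina protocol. Novoalign, edgeR and mm10 are named, without version or role, per the submitters' processing notes. Which microRNA catalogue was used, and how reads fitting several names were counted, is not given in the sources used here. Each library's deposited table holds raw counts for 1909 mature microRNAs, per the file headers. The authors also deposited TMM-normalized reads rounded to whole numbers, treated here as a score and used only as an alternative.

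The members and lists were chosen with earlier results of these data known. Counts were scaled to each library's total. Ratios carry exact conditional (Clopper-Pearson) 95% intervals, shares exact binomial intervals, differences of shares Newcombe intervals and odds ratios exact conditional intervals (scipy 1.17.1, Python 3.11.15). Ranked odds ratios are simple cross-products. With 1 library per group no test or p-value was possible. Log2 ratios had 0.5 counts added. Named microRNAs were the 10 members, other names of the loci, names sharing a member's seed, the 3 deeply counted hairpins nearest to miR-23b in signed arm difference, and both arms of miR-143, miR-145a, miR-221 and miR-222. Let-7d, miR-106b, miR-140, miR-199a, miR-199b, miR-299a, miR-299b, miR-322, miR-702 and miR-3072 were named after their values were seen. Scaling alternatives used edgeR 4.0.16 and DESeq2 1.42.0.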

Additional observations from a re-analysis of the deposited data

How the results depend on the processing

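With the deposited TMM reads the arm shares of miR-23 and miR-27 hairpins stayed within their intervals. This had to be so, since scaling a whole library changes a share within it only by rounding. All 10 member ratios stayed on their side of 1 under the 6 other scalings. The 2 scalings without let-7 or without the 10 most abundant shifted all log2 ratios by -0.01 and 0.12, and edgeR TMM, DESeq2 and upper-quartile factors by 0.09, 0.09 and 0.10. The ratio of miR-23b-5p was 1.717 with both edgeR TMM and the deposited reads, 1.720 with DESeq2, 1.728 with upper quartile and 1.753 without the 10 most abundant. For miR-23b-3p these were 0.788 (edgeR TMM and deposited), 0.789, 0.793 and 0.804. The chromosome 8 sum gave 0.682 (edgeR TMM and deposited), 0.683, 0.686 and 0.696, and 0.729 with miR-24-3p added. The chromosome 13 sum gave 1.113 (edgeR TMM and deposited), 1.115, 1.120 and 1.137, but 0.960 with miR-24-3p added, which turns its direction because miR-24-3p was itself lower in db/db. At 1.5-fold, 1 member was higher and 1 lower. Hairpins past the arm limit numbered 36 at a floor of 10 counts, 72 with no floor, 5 at 1000 counts, 46 at a limit of 5 percentage points and 9 at 15, and the member hairpins among them 2 at 5 points (miR-23a and miR-23b). With all miR-23 3p reads counted to miR-23b, chosen after seeing the data, its 5p share was 35.5% in db/db and 17.7% in db/+, the difference 17.8 percentage points and the odds ratio 2.55. By 5p arms, the share of miR-23b in its pair was 91.1% in db/db and 89.4% in db/+. Counting error limits miR-27a-5p, miR-24-2-5p and miR-24-1-5p. No paired analysis was possible because there is a single library of each genotype, and for that reason none could be left out.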
